A study of Mus musculus with 8 samples.

Results

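Cytosolic ribosomal protein genes were taken as the spots annotated with a single gene whose symbol starts with RPL and a number or P, or with RPS and a number or A. RPS6KA1 and RPS6KL1, which encode kinases of the S6 kinase family, and RPS19BP1, which encodes a binding partner of RPS19, were left out. The rule found 65 of the 2922 named genes, on 184 of the 9984 spots of each array. Of these genes, 41 encode proteins of the large subunit and 24 proteins of the small subunit, counting the paralogues RPL3L and RPS27L. The study hybridised 8 spotted arrays of muscle genes, which the labels call a human array, with total RNA of C2C12, an established mouse myoblast line. The cells stood for 14 or 24 h in medium taken from CAPAN-1 cultures (MBC14 and MBC24), CAPAN-1 being a line of human pancreatic cancer, or for 14, 24 or 0 h in control medium (MBN14, MBN24 and MBN0), so 5 RNA samples were compared. All groups are the same line in the same base medium with serum, and the study asked how factors released by a tumour act on muscle cells. MBC14 and MBC24 were each set against control RNA of the same hour, the matched hours, and against MBN0, which makes 4 comparisons. Each was run on 2 arrays: on array A the red dye Cy5 marked the conditioned RNA, and on array B, the dye swap, the green dye Cy3 did.

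The ribosome translates mRNA into protein: its small subunit reads the codons, and its large subunit joins the amino acids. Its proteins are made in nearly equal numbers from genes scattered over the chromosomes, and their mRNAs carry a run of pyrimidines at the 5′ end, the TOP tract, through which the kinase mTORC1 adjusts their translation. In muscle, the number of ribosomes is part of what sets the capacity for protein synthesis and so for fibre growth and loss. The arrays measured mRNA in bulk and not translation, so fewer cells with an mRNA and less of it per cell cannot be told apart.

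The deposited value of a spot is a signed score whose scale, and whose direction on the dye-swapped array, are not given in the sources used here. Deposited scores run from -23.6 to 24.8, past the 16 that a log2 ratio of 16-bit scans can reach, so no fold change was computed and a value of 1 is 1 score unit. Each array was centred on its own median, and the spots of a gene were averaged. The values were read in 2 ways. By the dye reading the scores are Cy5 over Cy3, so the score of array B is turned before averaging. By the medium reading they are conditioned over control medium on both arrays as deposited. Under either reading a positive mean is likely to be higher in conditioned medium, since the labels call that RNA the test. Arrays A and B hold the same RNAs, so they are 1 replicate, and an SD over them is technical. Nothing says that the 5 samples came from separate cultures. Ratios carry no expression level, so the myoblast markers could not be checked as levels. For MBC14 over MBN0, the labelling text of array B swaps the dyes that the dye field gives, and the dye field was followed.

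The start of the mouse mRNA, where the TOP tract lies, was looked at for the genes that recur below. Promoter sequences from RefSeq on the mouse build GRCm38.p6 matched 50 of the 65 genes by symbol, with 62 listed starts among 32851 for all genes. The windows run from 15 bases before to 15 bases after the listed start on the transcribed strand, and capitals mark each C followed by at least 5 more C or T. The first 5 are genes with such a run, and the last 3 have none.
Rpl7a (chr2:26910792-26910821, plus strand): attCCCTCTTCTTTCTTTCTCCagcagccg
Rps10 (chr17:27635230-27635259, minus strand): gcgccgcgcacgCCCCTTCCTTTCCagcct
Rpl35a (chr16:33056467-33056496, plus strand): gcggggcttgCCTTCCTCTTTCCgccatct
Rps18 (chr17:33955651-33955680, minus strand): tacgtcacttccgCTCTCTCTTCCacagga
Rps12 (chr10:23787195-23787224, minus strand): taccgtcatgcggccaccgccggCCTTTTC
Rpl5 (chr5:107900513-107900542, plus strand): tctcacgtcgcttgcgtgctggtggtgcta
Rps16 (chr7:28350674-28350703, plus strand): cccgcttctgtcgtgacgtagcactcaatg
Rpl3l (chr17:24727811-24727840, plus strand): gagtgttctagctctgtcatttgacctctg
Such a run stood in 31 of the 62 windows of ribosomal protein genes (50%), against 22.5% of all windows. It was about as frequent in large subunit windows (18 of 37) as in small subunit windows (13 of 25). Rpl3l, the form of Rpl3 made in heart and skeletal muscle, had none. A window without a run says only that these letters are not at the listed start. A window with a run need not hold a TOP tract, since the run may lie before or after the listed start. In the 300 bases from 250 before to 50 after the start, on both strands, the ETS factor motif CCGGAAG was found in 32.3% of ribosomal protein promoters and in 8.86% of all promoters. The SP1 motif GGGCGG was found in 56.5% and 35.7%, the YY1 motif AAGATGG in 14.5% and 6.34%, and the TATA box TATAAA in 6.45% and 13.6%. CCGGAAG and AAGATGG can overlap, since the end of the first is the start of the second. All of these matches describe sequence and show no bound factor.

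As deposited, the median of the ribosomal protein genes lay above that of all named genes on 3 of the 4 matched-hour arrays, and below it on all 4 arrays against MBN0. Arrays A and B of MBC14 over MBN14 had ribosomal medians of 0.28 and 0.079, where all named genes had -0.032 and 0.086. Array B of that comparison therefore showed no upward shift against the other genes. The arrays of MBC24 over MBN24 had 0.31 and 0.92, where all named genes had -0.056 and 0.11. The ribosomal medians were -0.92 and -0.58 for MBC14 over MBN0 (all named genes, -0.036 and 0.045), and -0.27 and -0.81 for MBC24 over MBN0 (-0.049 and 0.035). The MBN0 comparisons share the MBN0 sample with each other and their conditioned samples with the matched hours, so the 4 medians are not independent of one another.

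**Figure D1:**
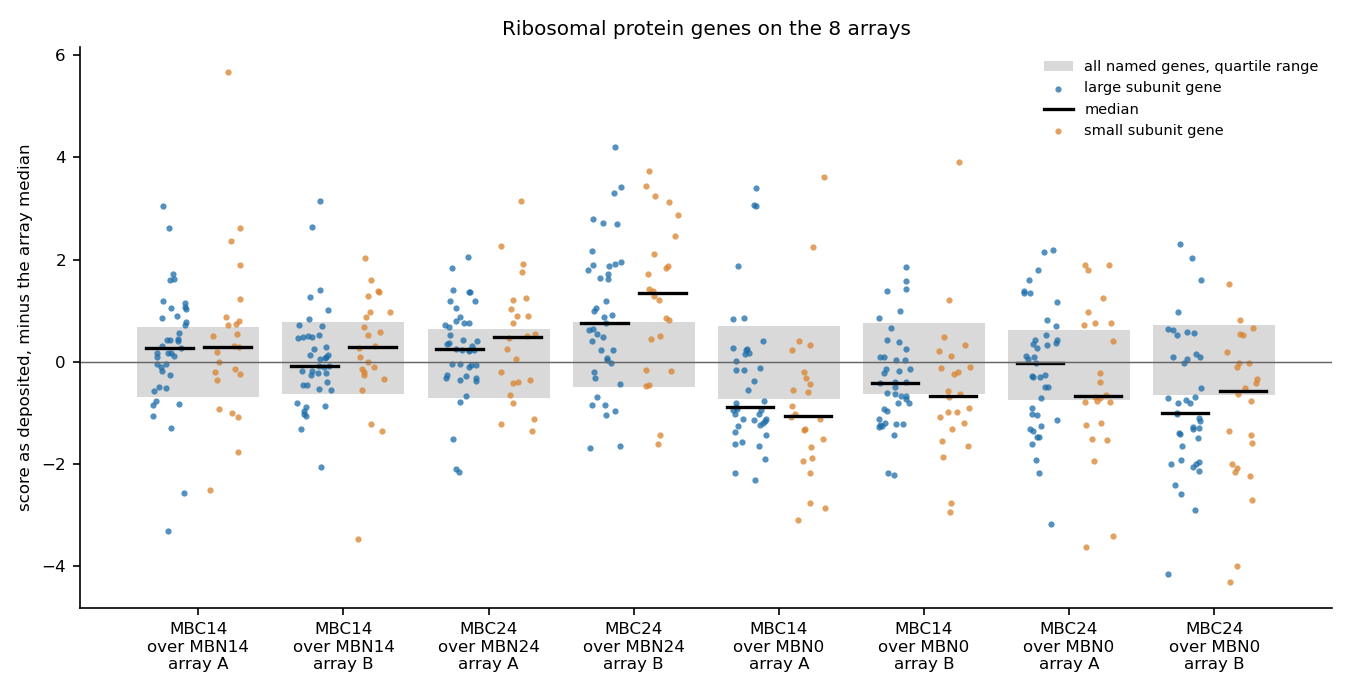
Score as deposited, centred on the array median, of each large subunit gene (blue, left) and small subunit gene (orange, right) on the 8 arrays; black lines are medians and grey boxes the quartile range of all 2922 named genes. The points lie mostly above 0 on array B of MBC24 over MBN24, where 48 of 65 genes do, and mostly below 0 on array A of MBC14 over MBN0, where 47 of 65 do.

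Single members varied widely on each array, with an SD over the 65 genes of 0.996 to 1.44 score units. The largest share on one side of 0 was 48 of 65 genes above it (73.8%, against 55.0% of all named genes), on array B of MBC24 over MBN24. The smallest was 34 of 65 above it, on array B of MBC14 over MBN14, and that share of 52.3% was about that of all named genes, 53.0%. As deposited, no ribosomal protein gene kept 1 sign on all 8 arrays, where 0.445% of all named genes did. With array B turned, as in the dye reading, RPL6, RPL11 and RPL18 were below 0 on all 8 arrays, and RPL37 and RPS27 were above 0. The share of all named genes that kept 1 sign with array B turned is not given here.

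Read by medium, the median over the 65 genes was 0.24 ± 0.14 for MBC14 over MBN14 and 0.55 ± 0.44 for MBC24 over MBN24 (SD over the 2 arrays' medians). It was -0.50 ± 0.24 for MBC14 over MBN0 and -0.45 ± 0.38 for MBC24 over MBN0. These medians are over gene means, so they can lie outside the medians of the 2 arrays. The medians of all named genes lay between -0.022 and 0.033. The mean of the 2 arrays was above 0 for 43 of 65 ribosomal protein genes at 14 h (all named genes, 51.9%) and for 50 of 65 at 24 h (51.8%). Against MBN0 it was below 0 for 51 of 65 (48.2%) with MBC14 and for 48 of 65 (51.5%) with MBC24.

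Read by dye, the arrays of a pair pulled the list in opposite directions, so the means were smaller than their spread. The median was 0.11 ± 0.26 at 14 h, -0.45 ± 0.87 for MBC24 over MBN24, -0.23 ± 1.06 for MBC14 over MBN0 and 0.34 ± 0.77 for MBC24 over MBN0. In each of the 4 comparisons the SD over arrays exceeded the median. The mean was above 0 for 40 of 65 genes in MBC14 over MBN14 (47.7%) and for 39 of 65 in MBC24 over MBN0 (48.6%), and below 0 for 42 of 65 in MBC24 over MBN24 (55%) and for 44 of 65 in MBC14 over MBN0 (52%). The list as a whole had no direction in this reading that stood clear of the difference between its arrays.

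**Figure D2:**
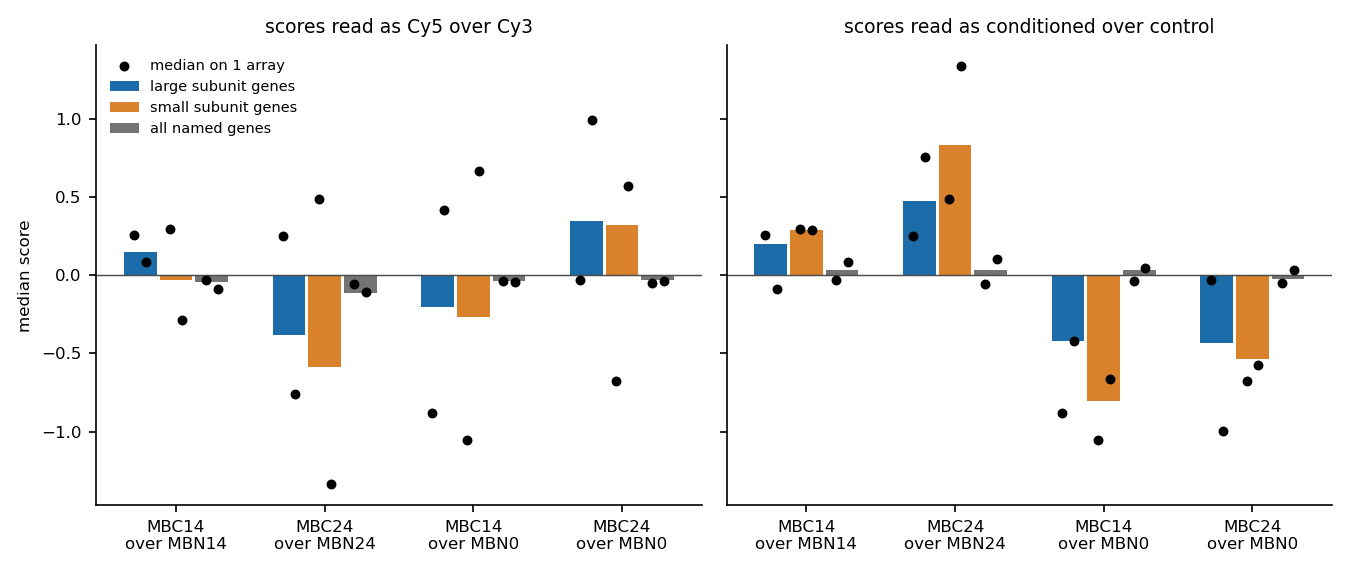
Median score of large subunit genes (blue), small subunit genes (orange) and all named genes (grey) in each comparison, in the dye reading (left, Cy5 over Cy3) and the medium reading (right, conditioned over control); dots are the medians of arrays A and B as read. Read by medium, the ribosomal bars stand above 0 at the matched hours and below 0 against MBN0, while in the dye reading the dots of a bar are far apart.

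The genes of the large and small subunit had medium-reading medians of the same sign in each comparison. Large subunit genes had a medium-reading median of 0.20 ± 0.24 and the small subunit genes 0.29 ± 0.0057 for MBC14 over MBN14. For MBC24 over MBN24 the values were 0.48 ± 0.36 and 0.84 ± 0.60. Small subunit genes were further from 0 than large subunit genes at both matched hours. For MBC14 over MBN0 the large subunit median was -0.42 ± 0.33 and the small subunit median -0.80 ± 0.28, and for MBC24 over MBN0 they were -0.43 ± 0.68 and -0.54 ± 0.072.

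The difference between the subunits, large minus small, was -0.034 and -0.37 on arrays A and B of MBC14 over MBN14, and -0.23 and -0.58 on those of MBC24 over MBN24. It was 0.17 and 0.24 on the arrays of MBC14 over MBN0, and 0.64 and -0.42 on those of MBC24 over MBN0. As deposited it thus kept 1 sign on the arrays of 3 pairs and changed sign within MBC24 over MBN0. Read by medium, the difference of the medians was -0.088 ± 0.24 for MBC14 over MBN14, -0.36 ± 0.24 for MBC24 over MBN24, 0.38 ± 0.049 for MBC14 over MBN0 and 0.11 ± 0.75 for MBC24 over MBN0 (SD over 2 arrays). The difference was taken over gene means, and its SD over the arrays' own differences. It can therefore lie outside the values of the arrays, as it did for MBC14 over MBN0, and was not weighed against the SD. Read by dye, it was 0.17 ± 0.29, 0.21 ± 0.58, 0.061 ± 0.30 and 0.022 ± 0.16 in the same order. The arrays as read by dye gave 0.64 and 0.42 for MBC24 over MBN0, both above the 0.022 of the gene means. In the other comparisons they differed in sign. No comparison has 2 independent samples, so none of these differences was tested.

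Genes were called in a single comparison by size: a mean of at least 1 score unit in size, and at least 0.5 in that direction on each array. This rule is no test. For MBC24 over MBN24 in the medium reading, 12 of 65 ribosomal protein genes were past it upward (all named genes, 3.7%) and 0 of 65 downward (2.33%). The 12 were 6 large subunit genes (RPL31, RPL35A, RPL5, RPL7A, RPL8 and RPLP1) and 6 small subunit genes (RPS10, RPS12, RPS18, RPS20, RPS3 and RPS3A). RPS3A, a small subunit protein, had scores of 1.76 and 3.44 on arrays A and B. RPLP1, an acidic protein of the stalk that recruits elongation factors, had 0.76 and 4.20, so array B carried most of its mean. RPL35A, a large subunit protein, had 2.04 and 2.80. The array means of RPL35A were among the more even over the dye swap, with a mean of 2.42 ± 0.54. Its 2 spots disagreed on array A, however, with an SD between them of 2.56. The median of that SD over the pairs of ribosomal spots on this array was 0.44.

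For MBC14 over MBN14 in the same reading, 3 genes were past the rule upward (3.56%) and 1 downward (2.81%). RPS27L, the paralogue of RPS27 that p53 is known to induce, had 1.90 and 0.59 on arrays A and B. RPLP1 had 1.62 and 0.85, and RPL5 had 1.71 and 0.70. RPL5 binds 5S rRNA and, with RPL11, the p53 regulator MDM2. The gene past the rule downward was RPL3L, the muscle paralogue of RPL3, with -0.76 and -1.31.

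RPL5 and RPLP1 were above 0 on all 4 matched-hour arrays. So were RPL12, RPL14, RPL21, RPL31, RPS20, RPS21 and RPS26, 9 of 65 genes in all (all named genes, 4.48%). RPL28, a large subunit protein, was the only member below 0 on all 4, where 3.46% of all named genes were. On both arrays of MBC24 over MBN24, 26 of 65 ribosomal protein genes were above 0 (21.4%) and 3 below (18.6%). On both arrays of MBC14 over MBN14 these counts were 19 above (21.7%) and 10 below (20%), so the 14 h list was closer to the background than the 24 h list. The difference between the hours was not tested.

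Against MBN0 the medium reading gave mainly lower values. For MBC14 over MBN0, 12 of 65 genes were past the size rule downward (4.72%) and 1 upward (5.61%). RPS12, a small subunit protein, had -2.17 and -2.76 on arrays A and B, close together. RPS3, which lines the entry of the mRNA channel, had -3.09 and -1.31. RPS4X, a small subunit protein of the X chromosome, had -2.86 and -0.97. The one gene upward was RPS16, described below. The other 9 downward were RPL31, RPL34, RPL36, RPL5, RPL7A, RPLP1, RPS23, RPS26 and RPS27L.

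For MBC24 over MBN0, again 12 genes were past the rule downward (3.73%), and 2 upward (3.11%). RPL14, a large subunit protein, had -3.18 and -1.91 on arrays A and B. RPS12 had -0.77 and -4.31, and RPS20, a small subunit protein, had -0.79 and -3.99. The means of RPS12 and RPS20 came mostly from array B. The genes upward were RPS13, a small subunit protein, with 1.90 and 0.67, and RPL3L with 1.79 and 0.64. The other 9 downward were RPL10, RPL27, RPL28, RPL5, RPL7, RPS21, RPS23, RPS25 and RPS4X. Both MBN0 comparisons use the same MBN0 RNA, so their lists are given side by side and were not compared. Both arrays were below 0 for 33 of 65 genes with MBC14 (22.6%) and for 22 of 65 with MBC24 (20.2%), and above 0 for 6 (22.8%) and 5 (19.8%).

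**Figure D3:**
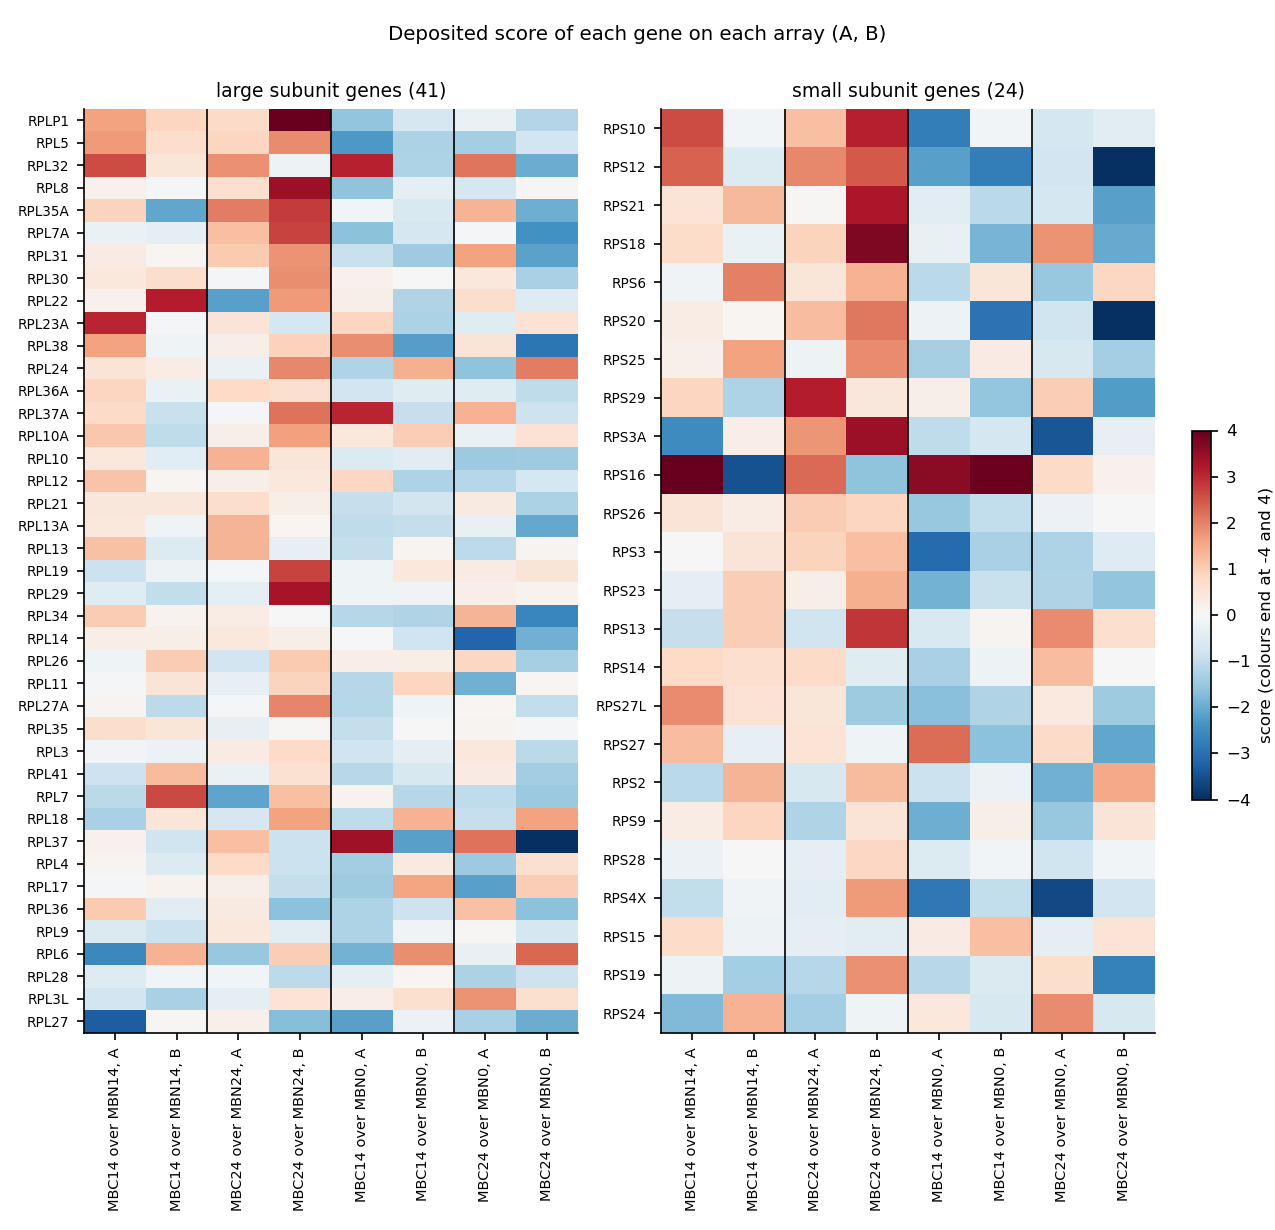
Deposited score of each large subunit gene (left) and small subunit gene (right) on arrays A and B of the 4 comparisons, from blue (below 0) to red (above 0), with colours ending at -4 and 4 and genes ordered from top to bottom by their matched-hour mean in the medium reading. Near the top, RPLP1, RPL5 and RPS12 are mostly red at the matched hours and blue against MBN0, while RPS16 changes colour between the arrays of each matched hour and is red on all arrays against MBN0.

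The size rule found other genes in the dye reading. For MBC14 over MBN14 it took 5 upward (RPL10A, RPL35A, RPS12, RPS16 and RPS29, against 9.1% of all named genes) and 5 downward (RPL41, RPL6, RPL7, RPS2 and RPS24, against 10.8%). RPL35A had 0.90 and -2.06 as deposited on arrays A and B, and RPS12 had 2.37 and -0.56. RPL6, a large subunit protein, had -2.57 and 1.40, and RPS24 had -1.76 and 1.38. RPS24 is a small subunit protein and one of the Diamond-Blackfan anaemia genes in humans. For MBC24 over MBN24 it took RPL37 and RPS16 upward (7.94%) and RPL18, RPL22, RPL6, RPL7, RPS13 and RPS19 downward (9.69%). RPL37, a zinc-binding large subunit protein, had 1.19 and -0.84 as deposited, and RPS13 had -0.80 and 2.87. In both comparisons the share of ribosomal protein genes past the rule each way was near or under the background.

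For MBC14 over MBN0 the dye reading took 7 upward (7.29%) and 4 downward (8.38%). RPL37 had 3.40 and -2.17 as deposited, RPL32 had 3.07 and -1.22, and RPL38 had 1.86 and -2.21. RPL38 is a large subunit protein that mouse embryos need for the translation of certain Hox mRNAs. RPL6 had -1.90 and 1.85, RPL17 had -1.43 and 1.58, and RPL24, a protein at the bridge between the subunits, had -1.20 and 1.42. The other upward genes were RPL12, RPL23A, RPL37A and RPS27, and the fourth downward gene was RPL18.

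For MBC24 over MBN0 it took 14 upward (8.38%) and 7 downward (10.9%). RPL37 had 2.18 and -4.15 as deposited, RPL32 had 2.15 and -2.0, and RPL34 had 1.35 and -2.59. RPL32, a large subunit protein, was thus nearly symmetric over the dyes. RPL24 had -1.61 and 2.03, RPS2 had -1.94 and 1.52, and RPL17 had -2.17 and 0.97. RPS2 is a small subunit protein near the mRNA entry. The upward genes were 9 of the large subunit and 5 of the small subunit, and the downward genes 4 and 3.

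**Figure D4:**
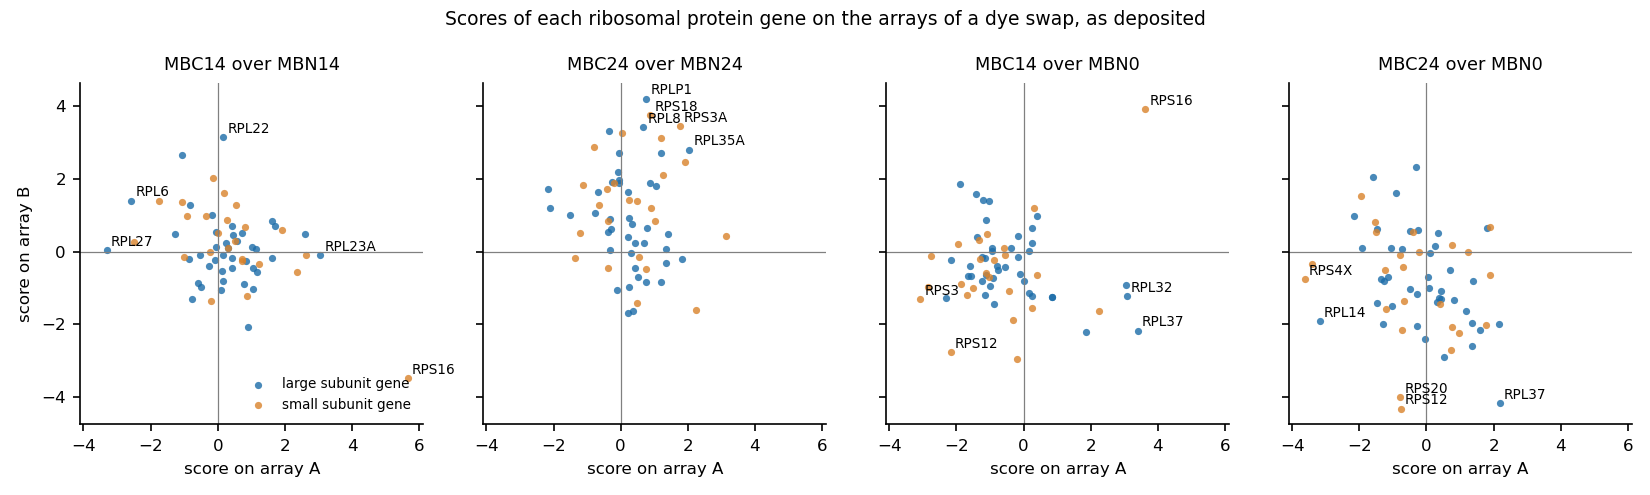
Deposited score of each ribosomal protein gene on array B against array A for the 4 comparisons, large subunit genes in blue and small subunit genes in orange, with the 5 genes farthest from 0 named. Points in the upper left and lower right change sign with the dye swap, as RPS16 does in MBC14 over MBN14 and RPL37 does against MBN0, and the points at lower left against MBN0 keep their sign, as RPS12 does.

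The arrays of a pair agreed poorly gene by gene. Across the 65 genes, the Pearson correlation of array A with array B as deposited was -0.39 for MBC14 over MBN14, -0.037 for MBC24 over MBN24, -0.015 for MBC14 over MBN0 and -0.28 for MBC24 over MBN0. Across all named genes these values were -0.32, -0.28, -0.13 and -0.27. Genes are not independent replicates, and the points share arrays and dyes. Differences that repeat over the dye swap would give a positive value under the medium reading and a negative one under the dye reading. None of the 4 values over the 65 genes was above 0, and 2 of them were near 0. The subunits differed in MBC14 over MBN0, with -0.44 over the 41 large subunit genes and 0.41 over the 24 small subunit genes. In the order MBC14 over MBN14, MBC24 over MBN24 and MBC24 over MBN0, the large subunit values were -0.16, -0.097 and -0.40 and the small subunit values -0.65, 0.013 and -0.15. The deposited scores of arrays A and B had opposite signs for 36 of 65 ribosomal protein genes in MBC14 over MBN14 (all named genes, 58.2%), 36 in MBC24 over MBN24 (60%), 26 in MBC14 over MBN0 (54.6%) and 38 in MBC24 over MBN0 (60%).

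The main test took the matched hours as 2 values of each gene and was run with limma over the 2922 genes with Benjamini-Hochberg adjustment. It assumes that the 14 h and 24 h comparisons repeat each other. Each SE given with it is moderated by limma, which draws on the spread of all genes. An SE therefore does not measure the spread of 1 gene over the 2 hours alone. Read by dye, 3 of 65 ribosomal protein genes passed, 1 upward (3.08% of all named genes) and 2 downward (2.12%). The share is near the background, and the dye reading was itself chosen as the main one from correlations of these same scores. The gene upward was RPS16, a protein of the small subunit head. Its deposited scores were 5.66 and -3.47 on arrays A and B of MBC14 over MBN14, and 2.26 and -1.60 on those of MBC24 over MBN24. Its matched-hour mean in the dye reading was 3.25 ± 0.58 (SE), with an adjusted p of 0.0174 by limma. Against MBN0 its scores did not change sign with the dye: they were 3.62 and 3.91 with MBC14, and 0.77 and 0.19 with MBC24.

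The 2 genes that passed downward in the dye reading encode large subunit proteins. RPL7 had deposited scores of -1.07 and 2.64 at 14 h and of -2.10 and 1.19 at 24 h on arrays A and B. Its mean was -1.75 ± 0.38 (SE, adjusted p = 0.0342 by limma). RPL22, which also binds cellular and viral RNAs, had 0.16 and 3.15 at 14 h and -2.16 and 1.71 at 24 h, so its 14 h value came almost wholly from array B. Its mean was -1.71 ± 0.39 (SE, adjusted p = 0.0387 by limma). RPL6 was next, with -1.62 ± 0.40 (SE, adjusted p = 0.0504 by limma), and did not pass. Their medium-reading means, RPL22 first and RPL7 second, were 0.72 and 0.17, of the opposite sign, and that of RPS16 was 0.71. Without array A 0 of 65 genes passed in this dye reading. Without array B 3 passed, RPL32, RPS12 and RPS16, so that RPL7 and RPL22 were lost in both cases. With all 4 comparisons as values of 1 mean 0 passed. Shares of all named genes that passed in these refits are not given here, so the counts describe the processing and not the members.

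Read by medium, 0 of 65 ribosomal protein genes and 0 of all 2922 genes passed (0% each way, adjusted p = 0.995 by limma for every gene named in this paragraph). At an unadjusted p under 0.05, 7 of 65 were upward (1.92% of all named genes) and 1 downward (1.2%). The 7 were RPLP1 with a matched-hour mean of 1.86 ± 0.46 (SE), RPS10 with 1.72 ± 0.43, RPS12 with 1.55 ± 0.47, RPL5 with 1.29 ± 0.38, RPS21 with 1.28 ± 0.41, RPL32 with 1.19 ± 0.41 and RPS6 with 0.95 ± 0.38. RPS6 is the substrate that gave the S6 kinases their name, and RPS10 lies near the mRNA entry. The 1 downward was RPL27, with -1.18 ± 0.42, a large subunit protein. By dye, 5 of 65 were upward (9.58%) and 10 downward (13.2%) at the same unadjusted level. An exact sign permutation of 2 values cannot give a p below 0.5.

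Every member was printed on at least 2 adjacent spots, which gives a second error beside the dye swap. There were 92 such pairs: 45 genes had 1 pair, 14 had 2, 5 had 3 and RPL10 had 4. Over the 92 pairs the correlation between adjacent spots was 0.62 to 0.82 on the 8 arrays, and the median SD within a pair was 0.36 to 0.57 score units. Pairs at different places of the array agreed less well. For the 20 genes with several pairs, the median SD between the pairs of a gene was 0.61 to 1.55, above the median SD within pairs on each of the 8 arrays. Values of single pairs are printed below for 6 of the 20 genes, chosen after their values were seen.

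RPL23A, a large subunit protein near the exit of the peptide tunnel, differed most between its 3 pairs. On array A of MBC14 over MBN14 they gave 10.7, -2.22 and 0.69, and on array B -2.77, 2.27 and 0.24. Its mean therefore describes no single pair. RPL22 had 0.50 and -0.18 from its 2 pairs on array A of MBC14 over MBN14, and 5.52 and 0.79 on array B. On MBC24 over MBN24 its pairs gave -2.96 and -1.36 on array A, and 2.74 and 0.67 on array B. Both pairs of RPL22 thus had the same sign on the 24 h arrays, at different size.

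RPS12 and RPLP1 were steadier in sign. The 2 pairs of RPS12 gave 2.68 and 2.06 on array A and -0.19 and -0.93 on array B of MBC14 over MBN14. They gave 2.80 and 1.02 on array A and 1.77 and 3.16 on array B of MBC24 over MBN24. All 8 pair values of RPS12 against MBN0 were below 0, from -6.60 to -0.30. The pairs of RPLP1 were above 0 on all 4 matched-hour arrays, and on array B of MBC24 over MBN24 they gave 7.26 and 1.14. RPS21, a small subunit protein, had 3 pairs, which gave 2.11, 6.26 and 1.38 on array B of MBC24 over MBN24 and -2.78, -1.82 and -1.88 on array B of MBC24 over MBN0.

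RPL10, which completes the large subunit late in its assembly, had the most pairs. On array A of MBC24 over MBN24 they gave 0.34, 2.01, 1.36 and 1.91, and on array B 0.84, -0.62, 1.43 and 0.29. On array A of MBC24 over MBN0 they gave -0.24, 1.42, -3.85 and -3.20, and on array B -2.32, -1.40, -0.50 and -1.46. Of the 20 genes, 9 (RPL10, RPL13A, RPL36A, RPL38, RPLP1, RPS12, RPS21, RPS27 and RPS6) had every pair above 0 in the matched-hour mean of the medium reading. RPS15 had neither pair above 0. The others (RPL12, RPL13, RPL18, RPL19, RPL22, RPL23A, RPL28, RPL4, RPL41 and RPS28) held pairs of both signs. The same count over other named genes with several pairs is not given here. Pairs of a gene share arrays and RNA, so their agreement is technical. Ribosomal protein genes have many processed pseudogenes and mouse RNA was hybridised to an array with human symbols, so some spots may bind related transcripts. The pairs RPL3 and RPL3L, and RPS27 and RPS27L, could share signal.

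For 12 other members with several pairs, the scores averaged over their spots follow for arrays A and B as deposited, first at 14 h, then at 24 h, then for MBC14 and last for MBC24 against MBN0. RPL18 had -1.29 and 0.49, -0.67 and 1.62, -1.02 and 1.39, and -0.91 and 1.61. Array A was below 0 and array B above 0 in all 4 comparisons, so as deposited this large subunit gene changed sign with the dye throughout. In the dye reading RPL18 therefore kept 1 sign, with means of -0.89, -1.14, -1.20 and -1.26 in the same order. RPL4 had 0.12 and -0.54, 0.76 and -0.84, -1.38 and 0.39, and -1.46 and 0.63, and RPL13 had 1.18 and -0.55, 1.36 and -0.33, -0.94 and 0.096, and -1.05 and 0.10. Both encode large subunit proteins, and their arrays also took opposite signs in each comparison. RPL41, the shortest ribosomal protein, had -0.83 and 1.27, -0.28 and 0.62, -1.11 and -0.64, and 0.32 and -1.39. RPS6 had -0.14 and 2.03, 0.50 and 1.39, -1.08 and 0.49, and -1.52 and 0.81. RPL41 held 1 sign over the dye swap in MBC14 over MBN0 only, and RPS6 in MBC24 over MBN24 only.

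RPL13A, which in human monocytes also leaves the ribosome to silence inflammatory mRNAs, had 0.43 and -0.18, 1.36 and 0.064, -1.01 and -0.96, and -0.29 and -2.05. RPL36A had 0.86 and -0.25, 0.79 and 0.64, -0.76 and -0.49, and -0.49 and -1.01. These large subunit genes were above 0 on both arrays of MBC24 over MBN24 and below 0 on all 4 arrays against MBN0. RPL12, a protein at the base of the stalk, had 1.15 and 0.079, 0.23 and 0.41, 0.84 and -1.24, and -1.14 and -0.71. RPL28 had -0.51 and -0.11, -0.10 and -1.05, -0.38 and 0.086, and -1.26 and -0.81. RPL12 was above 0 and RPL28 below 0 on all 4 matched-hour arrays, and against MBN0 both were below 0 on 3 of 4 arrays. RPL19 had -0.85 and -0.21, -0.050 and 2.69, -0.17 and 0.44, and 0.34 and 0.52, its highest score being on array B of MBC24 over MBN24. Among small subunit genes RPS28 had -0.24 and -0.0087, -0.36 and 0.83, -0.56 and -0.094, and -0.78 and -0.10, below 0 on 7 of 8 arrays, and RPS15 had 0.73 and -0.20, -0.39 and -0.45, 0.32 and 1.21, and -0.41 and 0.54.

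The paralogues can be set beside their general forms. RPL3 had -0.10 and -0.23 on the arrays of MBC14 over MBN14 and -0.80 and -0.40 on those of MBC14 over MBN0. RPL3L had 0.26 and 0.65 in that last comparison. RPS27 had 1.23 and -0.34 on the arrays of MBC14 over MBN14 and 2.24 and -1.64 on those of MBC14 over MBN0, where RPS27L had -1.67 and -1.21.

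The place on the array varied with membership. Of the 184 ribosomal spots, 82 (44.6%) lay among the first 600 spots in file order, of which they made up 13.7%, against 1.84% of all spots. Other named spots of this region had array medians between -0.27 and 0.11. In the medium reading the ribosomal spots up to number 600 had medians of 0.20, 0.87, -0.63 and -0.38 in the order 14 h, 24 h, MBC14 against MBN0 and MBC24 against MBN0, and those above 600 had 0.39, 0.32, -0.39 and -0.52. The sign of these means was the same in both regions, but that of single arrays was not. As deposited, array B of MBC14 over MBN14 had -0.14 up to number 600 and 0.37 above it, and array A of MBC24 over MBN0 had 0.31 and -0.73. By dye, MBC24 over MBN0 had 0.84 up to number 600 and -0.30 above it, the opposite sign.

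RPS16 stood on the first 2 spots of the file. They gave 2.56 and 8.76 on array A and -2.99 and -3.95 on array B of MBC14 over MBN14. The next 10 spots had medians of 1.41 and -0.82 on these arrays, in the directions of RPS16 and smaller. On MBC14 over MBN0 the 2 spots gave 4.61 and 2.63 on array A and 6.81 and 1.01 on array B. The close array means of RPS16 there thus came from unlike spots. The next 10 spots had -0.15 and 1.01 on those arrays. The part of position in the RPS16 call was not tested beyond centring each spot on its neighbours. With 51 neighbours the call was kept, and with 11 the mean was 1.78 with an adjusted p of 0.283 by limma. These windows hold the 2 spots of RPS16 themselves and are cut short at the start of the file. Centring can thus take away part of the gene's own score, so the lost call cannot show the part of position.

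Genes that share the TOP tract or the work of the ribosome were described by lists. The 17 other TOP genes on the array, among them elongation factors, had medians of -0.0045, 0.20, -0.28 and -0.64 in the medium reading in the order 14 h, 24 h, MBC14 against MBN0 and MBC24 against MBN0. Against MBN0, 13 of the 17 were below 0 in each comparison, where 48.2% and 51.5% of all named genes were. By dye, 6 of the 17 were above 0 with MBC14 and 8 with MBC24, where 48.0% and 48.6% of all named genes were. In the limma test of the dye reading 1 of 17 passed upward (3.08% of all named genes) and 0 downward (2.12%). The gene was EEF2, the elongation factor that moves the ribosome along the mRNA, with 1.87 ± 0.42 (SE, adjusted p = 0.037 by limma). NPM1, a chaperone of ribosome assembly, did not pass, and it had -4.07 and -1.39 on the arrays of MBC14 over MBN0 and -5.36 and -1.47 on those of MBC24 over MBN0. FAU, which encodes a small subunit protein fused to a ubiquitin-like protein and does not match the symbol rule, did not pass either, with a mean of 1.39 ± 0.41 (SE, adjusted p = 0.0846 by limma).

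Ribosomal proteins of the mitochondria, 35 genes, had medians in the medium reading of 0.25, 0.17, -0.20 and 0.033 in the same order. They differed most from the cytosolic list in MBC24 over MBN0, where the cytosolic median was -0.45. That difference was not tested. By dye, only MRPL4 of the 35 passed upward (3.08% of all named genes), with 2.14 ± 0.43 (SE, adjusted p = 0.026 by limma). Only MRPL40 passed downward (2.12%), with -2.22 ± 0.44 (SE, adjusted p = 0.0245 by limma). Both shares are near the background. Of 5 assembly genes (FBL, NOP10, NHP2, POLR1D and EIF6) and of 5 kinases and binding partners (RPS6KA1, RPS6KL1, RPTOR, EIF4EBP1 and RPS19BP1), 0 passed in either reading. EIF6, which keeps the subunits apart until the large one is mature, had a dye-reading mean of -1.18 ± 0.38. EIF4EBP1, the mTORC1 target that blocks cap-dependent initiation, had 1.11 ± 0.39 (SE). In the medium reading none of these 4 lists held a gene past the limma threshold.

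Genes with and without a pyrimidine run in the window around the mouse start had medians of the same sign, and their difference was not tested. The 30 genes with a run had medium-reading medians of 0.24, 0.55, -0.52 and -0.48 in the order 14 h, 24 h, MBC14 against MBN0 and MBC24 against MBN0. The 20 genes with a promoter and no run had 0.23, 0.30, -0.41 and -0.49. Among the windows printed above, Rps12 with a run and Rpl5 without one both belong to genes past the size rule downward for MBC14 over MBN0.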

How the data were processed

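Total RNA of 5 C2C12 samples was labelled directly and hybridised in 4 dye-swapped comparisons, per the labels. The authors deposited 1 signed score per spot and array; background correction, normalisation and scale are not given in the sources used here, and intensities were not used here. Because the scores exceed what a log2 ratio can reach, the planned log-ratio test was applied to the scores unchanged. Gene symbols came from the platform annotation: 6610 spots name 1 gene, 106 several and 3268 none here; 4 spots with several genes hold a ribosomal protein symbol and were not used.

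Each array was centred on its median over all spots, and spots were averaged by gene. The dye reading is the main one by rule, since arrays A and B correlated below 0 in all 4 comparisons. That rule uses the same scores that limma then tests, and turning array B under it tends to make the averaged means larger in size. If the scores were deposited as conditioned over control, a dye-reading mean is a difference between dyes and not between media. Which of these holds was not tested. Tests used limma 3.58.1 in R 4.3.3 (lmFit, eBayes, intercept of 2 values, threshold 0.05), and were tested on simulated data. Alternatives changed the reading, centring, scaling, averaging, size rule, arrays and fit. The replicate letters mark a dye swap of the same RNAs, so they were averaged. Members, lists and alternatives were chosen with earlier results of these data known. Per-array values are given for members past limma, for the 3 highest and 3 lowest past the size rule, and for members with several pairs of spots; other values of members were chosen after they were seen. The number of arrays limits the precision, and signal over background is unknown.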

Additional observations from a re-analysis of the deposited data

How the results depend on the processing

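The number of ribosomal protein genes that passed limma at the matched hours in the dye reading was 3. It was 0 in the medium reading, 0 with 11-spot centring, 1 with 51-spot centring and 0 with all 4 comparisons, and it ranged from 0 to 3 when array A or B was left out. It was 4 with the replicate block, a fit of all 8 arrays with their letter as a fixed term and each comparison as a block, which added RPL6, and with that block it was 0 in the medium reading. In the medium reading it was 0, against 3 in the dye reading and 0 to 3 when an array was left out. Shares of all named genes in the refits are not given here, so these counts are not set against a background. RPL22 and RPL7 changed sign in the medium reading, to 0.72 and 0.17, because array B is not turned there. The cause of the difference between arrays A and B was not tested.

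The list median changed with the reading and with the array. For MBC24 over MBN24 it was -0.45 in the dye reading and 0.55 in the medium reading, for MBC14 over MBN0 -0.23 and -0.50, and for MBC24 over MBN0 0.34 and -0.45. In the dye reading, leaving out an array turned the sign of the list median in each of the 4 comparisons: it ran from -0.079 to 0.28 for MBC14 over MBN14, from -0.92 to 0.31 for MBC24 over MBN24, from -0.92 to 0.58 for MBC14 over MBN0 and from -0.27 to 0.81 for MBC24 over MBN0. In the medium reading, leaving out an array gave 0.079 to 0.28 for MBC14 over MBN14 and -0.92 to -0.58 for MBC14 over MBN0, and spots above number 600, an alternative chosen after seeing the data, gave 0.39 for MBC14 over MBN14.

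Large minus small in the dye reading became 0.38 for MBC14 over MBN0 in the medium reading. Leaving out an array gave -0.24 to 0.17 there and 0.42 to 0.64 for MBC24 over MBN0. Spots above 600 gave -0.24 for MBC14 over MBN0 and -0.61 for MBC24 over MBN0, and spots up to 600 gave 0.35 for the last. In the medium reading it became 0.17, 0.21 and 0.061 for MBC14 over MBN14, MBC24 over MBN24 and MBC14 over MBN0 in the dye reading. Leaving out an array gave -0.37 to -0.034 for MBC14 over MBN14 and 0.17 to 0.24 for MBC14 over MBN0. Spots above 600 gave -0.33 for MBC14 over MBN14 and 0.63 for MBC14 over MBN0, and spots up to 600 gave -0.023 for MBC24 over MBN24 and 0.25 for MBC14 over MBN0. For MBC14 over MBN0 it was also 0.44 with the median of the spots of a gene, 0.32 without the paralogues, 0.45 over spots, and 0.32 with 51-spot centring that left ribosomal spots out of the neighbours.

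Counts by the size rule moved by over 1.5 times in 38 of 80 recomputed counts in the dye reading and in 43 of 80 in the medium reading, and the others stayed within that. The counts that moved are given upward then downward, for 14 h, 24 h, MBC14 against MBN0 and MBC24 against MBN0 in turn. Shares of all named genes past each altered rule are not given here. The altered counts therefore describe the processing and not the members. The dye reading had 5 and 5, 2 and 6, 7 and 4, and 14 and 7, and the medium reading 3 and 1, 12 and 0, 1 and 12, and 2 and 12. At a mean of 2 and 1 on each array, the dye reading had 1 and 0, 0 and 0, 3 and 0, and 2 and 0. The medium reading had 0 and 0, 4 upward, 2 downward, and 0 and 1. At 0.5 and 0.25 the dye reading had 10 and 9, 8 and 14, and 8 downward for MBC14 over MBN0. The medium reading had 9 and 3 for MBC14 over MBN14, 3 and 22 for MBC14 over MBN0, and 19 downward for MBC24 over MBN0. With 11-spot centring the dye reading had 2 downward for MBC14 over MBN14 and 9 and 3 for MBC24 over MBN0, and the medium reading 0 downward, 4 upward, 6 downward and 7 downward over the 4 comparisons. With 51-spot centring the dye reading had 8 and 4 for MBC24 over MBN0, and the medium reading 6 and 0, 7 upward, and 2 and 6 over the first 3. Without centring the dye reading had 3 upward for MBC14 over MBN14 and 1 for MBC24 over MBN24, and the medium reading 0 downward for MBC14 over MBN14. With 1 array left out, so that the other stood alone, the upward counts of the dye reading ran from 7 to 15, 5 to 15, 6 to 18 and 12 to 30 over the 4 comparisons, and its downward counts from 7 to 10, 6 to 31, 6 to 30 and 4 to 19. Those of the medium reading ran upward from 10 to 15, 15 to 31, 6 to 6 and 4 to 12, and downward from 7 to 7, 5 to 6, 18 to 30 and 19 to 30.

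With 2 arrays of the same RNAs in each comparison, no single comparison has a test, and the number of arrays and the unknown signal over background limit what the scores can show.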

Other observations

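Some contrasts that were not hybridised can be formed from pairs of comparisons that share an RNA sample. They were computed after the values were seen, they hold the error of 4 arrays, and they are descriptions. As differences of the comparisons above they restate those values and are no independent result. In the medium reading the 65 ribosomal protein genes had a median of -0.70 ± 0.14 (SD over arrays A and B) for MBN14 over MBN0. It was taken as MBC14 over MBN0 minus MBC14 over MBN14, and 48 of 65 genes were below 0 (all named genes, 49.9%). For MBN24 over MBN0 the median was -0.92 ± 1.04, with 54 of 65 below 0 (50.4%). All named genes had medians of 0.0035 and -0.011. For MBC24 over MBC14 the ribosomal median was 0.025 ± 0.71, with 32 of 65 genes below 0. All named genes had a median of -0.063 there, with 53.3% below 0.

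The subunits had unequal medians in MBN14 over MBN0: -0.48 ± 0.30 for large subunit genes and -1.33 ± 0.20 for small subunit genes. For MBN24 over MBN0 they were -0.89 ± 1.10 and -1.32 ± 0.75. In the dye reading the list medians were -0.31 ± 1.23 for MBN14 over MBN0, 0.40 ± 1.68 for MBN24 over MBN0 and 0.39 ± 0.020 for MBC24 over MBC14. All named genes had -0.0085, 0.026 and -0.044 in the same order. By dye, 40 of 65 genes were below 0 for MBN14 over MBN0 (all named genes, 50.3%) and 24 of 65 for MBN24 over MBN0 (49.0%). For MBC24 over MBC14 it was 22 of 65 (52.0%). These contrasts were not tested, and no array compares control medium at 14 or 24 h with MBN0 directly.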
